A study of Homo sapiens with 18 samples.

Results

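The genes described here build glutathione or belong to the best known targets of the transcription factor NRF2, and they were chosen by name. The list held GCLC, GCLM, GSS, GSR, GSTP1, SLC7A11, NQO1, TXNRD1, HMOX1 and SRXN1. A gene entered if its symbol stood in the table of normalized read counts, which was so for 9 of the 10 among 12853 genes. SRXN1 was not analysed here. RNA-seq was performed on 18 libraries of rRNA-depleted total RNA from 6 human ovarian cancer cell lines, 3 libraries per line, to compare sensitive lines with matched lines resistant to platinum. PEO1 (sensitive) and PEO4 (resistant) came from the same patient with high-grade serous ovarian cancer (HGSOC) before and after resistance appeared in the clinic. Per the paper, both PEO lines were taken after platinum-based chemotherapy. The ascites-derived lines PEA1 (sensitive) and PEA2 (resistant) stand for HGSOC before platinum and at relapse. CP70 was made resistant in culture from the sensitive line A2780, which the labels call endometrial or ovarian. All lines were grown in the same glutamine- and serum-supplemented RPMI-1640, and although the series' text speaks of cisplatinum, the sample labels give no treatment. Each state of a pair is a lone cell line, so a difference within a pair cannot be told apart from any other difference between those lines. Whether the replicates were separate cultures is not stated, and the spread between them may be technical.

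Glutathione is the main small thiol of the cell. It is made from glutamate, cysteine and glycine, it reduces peroxides, and it binds electrophiles, platinum drugs among them. SLC7A11 imports cystine for it, GCLC and GCLM form the enzyme of the rate-limiting step, GSS completes the molecule and GSR restores it after oxidation. NRF2, encoded by NFE2L2, binds with a small MAF protein to antioxidant response elements in DNA. KEAP1 marks NRF2 for destruction until oxidants or electrophiles block it, and BACH1 competes for the same elements as a repressor. Target genes of NRF2 include most of the genes named above and many enzymes that supply NADPH or remove reactive compounds.

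Promoter sequences from RefSeq (GRCh38.p14) were found for 5 of the 9 genes, and the core of the antioxidant response element, TGACNNNGC, was searched on both strands in windows of 300 bases, from 250 before the start site to 50 from it. It occurs in 13.3% of all 35116 promoters searched so. It stood in the windows of GCLM, GSTP1 and both listed start sites of TXNRD1, and it was not found in those of GCLC and NQO1. The 126 bases that end at the start site are shown for GCLM, GSTP1 and TXNRD1, whose motifs lie there. NQO1 is shown as an example of a window without these letters. The sequences read 5′ to 3′ on the strand of the gene, and capitals mark the motif on either strand.
GCLM (chr1:93909430-93909555, minus strand): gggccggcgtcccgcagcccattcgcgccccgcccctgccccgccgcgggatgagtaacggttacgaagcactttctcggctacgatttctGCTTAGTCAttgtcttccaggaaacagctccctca
GSTP1 (chr11:67583687-67583812, plus strand): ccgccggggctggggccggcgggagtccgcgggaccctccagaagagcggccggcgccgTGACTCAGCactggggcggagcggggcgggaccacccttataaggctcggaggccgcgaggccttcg
TXNRD1, first start site (chr12:104215654-104215779, plus strand): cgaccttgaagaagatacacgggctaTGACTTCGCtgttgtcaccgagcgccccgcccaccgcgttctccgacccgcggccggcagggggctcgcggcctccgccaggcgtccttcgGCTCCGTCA
TXNRD1, second start site (chr12:104286907-104287032, plus strand): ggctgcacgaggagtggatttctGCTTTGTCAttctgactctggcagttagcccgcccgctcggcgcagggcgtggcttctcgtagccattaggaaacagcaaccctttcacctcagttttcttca
NQO1 (chr16:69726560-69726685, minus strand): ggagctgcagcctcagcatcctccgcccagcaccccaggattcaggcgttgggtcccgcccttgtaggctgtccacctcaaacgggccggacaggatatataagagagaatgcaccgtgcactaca
In GCLM the motif ended 26 bases before the start site, and in GSTP1 58 bases before it. The first TXNRD1 start site had motifs ending 91 bases before it and at the start site itself, and the second had its motif 94 bases before it. A match of letters is a description of the window and not a measured binding site, and nothing can be read from the windows without a match.

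Expression is given as log2 CPM, the log2 of the count scaled to library size (CPM) with 0.5 reads added, as the authors deposited it. Library depth over the genes of the table was 1344098 to 7067336 reads (median 2926659), and 3 reads corresponded to between 0.452 and 2.18 CPM. A gene was said to have changed in a pair at an FDR below 0.05 in limma, adjusted over all 12853 genes, and to be differentially expressed if its log2FC (resistant minus sensitive line) also exceeded 2 in size. Libraries of the same line varied more than counting error alone would make them (chi-square per degree of freedom 1.74 to 13.5). The lines were also unlike in lineage markers. Of 10 markers of serous ovarian epithelium, such as PAX8, MUC16 and the keratins, 9 had at most 3 reads in every A2780 library and 6 in every CP70 library, against 2 in PEA1, 0 in PEA2 and 1 each in PEO1 and PEO4. Summed, they reached 3.08 to 4.92 CPM in A2780, 91.5 to 97.1 in CP70, 441 to 595 in PEA1, 3680 to 3920 in PEA2, 6630 to 7660 in PEO1 and 4810 to 6400 in PEO4.

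CP70 expressed more of nearly the whole set than A2780. In the A2780 pair 8 of the 9 genes were higher in the resistant line and 0 were lower, whereas 22.2% of all genes tested were higher and 17.7% lower. None of the 9 was lower at an unadjusted p below 0.05 (0 genes), and voom weights also gave 0. The PEA pair had 2 higher (GSTP1 and TXNRD1) and 3 lower (GCLM, GSR and NQO1), against 32.5% and 29.4% of all genes. The PEO pair had 4 higher (GCLC, GSS, NQO1 and TXNRD1) and 3 lower (GCLM, SLC7A11 and HMOX1), against 19.6% and 21.9%. TXNRD1, which keeps thioredoxin reduced, was the sole member that rose in all 3 pairs, 1 of 9 where 1.59% of all genes did so, and 0 fell in all 3, where 1.21% did. Its call in the A2780 pair did not pass in 4 of 18 fits that left out a library (FDR 0.0537 to 0.0886). GCLM and NQO1 also changed in every pair but not in the same direction. The plot of log2FC by pair shows the 9 genes together.

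**Figure D1:**
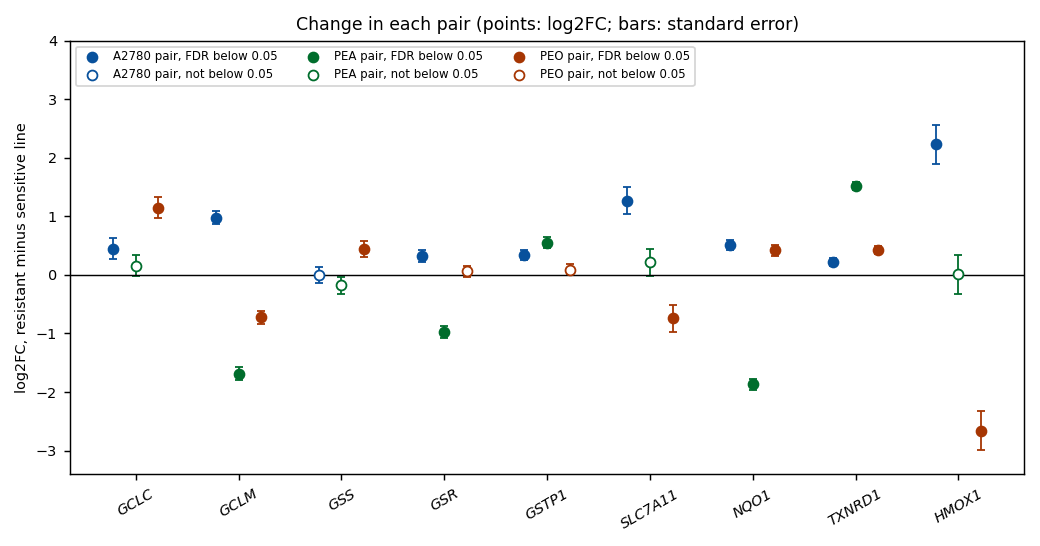
Log2FC (resistant minus sensitive line) of the 9 genes in the A2780 pair (CP70 against A2780), the PEA pair (PEA2 against PEA1) and the PEO pair (PEO4 against PEO1), with standard errors from limma. Filled points have an FDR below 0.05. In the A2780 pair 8 points lie above 0 and are filled, while HMOX1 runs from 2.23 in that pair to -2.66 in the PEO pair.

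Most of these changes were small. Differential expression, with the bound on size, was reached by HMOX1 in the A2780 pair (1 of 9 genes, against 9.06% of all genes), by HMOX1 in the PEO pair (1 of 9, against 6.22%) and by 0 of 9 in the PEA pair (against 14.1%), where 0 also passed with an unadjusted p below 0.05 and with voom weights. Taken by pair (A2780, PEA, PEO), the 9 genes had median log2FC values of 0.45, 0.01 and 0.09, beside -0.02, 0.01 and -0.02 over all genes. Their median size of change, whatever the direction, was 0.45, 0.55 and 0.44, beside 0.42, 0.68 and 0.43. The libraries of the lines did not overlap for 8, 5 and 7 of the 9 genes, beside 54.6%, 62.6% and 57.5% of all genes. In these bulk samples, a smaller share of cells that express a gene and less of its RNA per cell cannot be told apart.

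The log2FC differed between pairs for many of the genes. The change differed between the A2780 and PEA pairs for 6 of 9 genes (57.5% of all genes), between the A2780 and PEO pairs for 4 (47.5%) and between the PEA and PEO pairs for 9 (58.7%), each by a contrast of the log2FC values in the same limma fit. GCLM, GSR, SLC7A11, NQO1 and HMOX1 were higher in the resistant line of a pair and lower in that of another, 5 of 9 genes, where 27.5% of all genes were. The linear model over all pairs, with pair and sensitivity as terms, called 3 of 9 genes, against 24.1% of all genes. These were TXNRD1 (log2FC 0.72, SE 0.15, FDR = 0.00243), GCLC (0.59, SE 0.15, FDR = 0.00989) and GSTP1 (0.33, SE 0.08, FDR = 0.00615). With the 3 pair differences as the replicates, 0 of the 9 were called and 0 had an unadjusted p below 0.05.

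Cystine import. SLC7A11 (ENSG00000151012, chromosome 4, 139085251 to 139163503, minus strand, GRCh37) encodes the transporter chain of the cystine and glutamate exchanger. It measured 2.59, 2.72 and 3.51 log2 CPM in the A2780 libraries and 4.56, 4.32 and 3.76 in the CP70 libraries. All CP70 libraries lay above all A2780 libraries, and the log2FC was 1.27 (SE 0.23, FDR = 0.000171), a 2.42-fold rise. The PEA lines were both far above the others, at 6.51, 6.62 and 6.52 in PEA1 and 7.07, 6.74 and 6.51 in PEA2. They overlapped, and the log2FC of 0.22 (SE 0.23) did not pass (FDR = 0.418). PEO1 had 3.49, 3.63 and 3.39, and PEO4 had 2.75, 2.63 and 2.91. SLC7A11 thus fell in PEO4, by 0.74 on the log2 scale (SE 0.23, FDR = 0.0152), on 18 to 19 reads per library. That call did not pass with voom weights (FDR = 0.0735), without PEO1 replicate 2 (FDR = 0.0541) or without PEO4 replicate 2 (FDR = 0.0551). From PEA2 to PEO4 the line means spanned 4.01 log2 units, 16.2-fold. The antisense gene SLC7A11-AS1 overlaps it, and the strand setting of the read counting is not stated. SLC3A2, the heavy chain that SLC7A11 needs to reach the membrane, did not pass in the A2780 pair (log2FC -0.23, SE 0.11, FDR = 0.103), rose in PEA2 (0.85, SE 0.11, FDR = 1.02e-06) and fell slightly in PEO4 (-0.28, SE 0.11, FDR = 0.0404), a call that did not pass without the variance trend (FDR = 0.0792) or in 5 of 18 fits that left out a library.

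Glutamate-cysteine ligase. GCLC (ENSG00000001084, chromosome 6, 53362139 to 53481768, minus strand) is the catalytic subunit. It read 4.82, 5.02 and 4.80 log2 CPM in PEO1 and 6.20, 5.82 and 6.07 in PEO4. The lines stood well apart, with a log2FC of 1.15 (SE 0.18, FDR = 2.72e-05), the largest rise of GCLC. In A2780 it read 4.96, 5.37 and 5.27 and in CP70 5.58, 5.74 and 5.65, again without overlap (log2FC 0.45, SE 0.18, FDR = 0.0497). That call is at the threshold: it did not pass with quantile normalization (FDR = 0.0696), without the variance trend (FDR = 0.0672) or in 12 of 18 fits that left out a library. PEA1, at 4.65, 5.20 and 4.77, and PEA2, at 5.21, 4.62 and 5.25, overlapped (log2FC 0.16, SE 0.18, FDR = 0.458). The opposite-strand genes GCLC-AS1 and LINC01564 and a noncoding gene on its own strand overlap GCLC.

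GCLM (ENSG00000023909, chromosome 1, 94350755 to 94375012, minus strand) is the modifier subunit, which raises the affinity of the enzyme for glutamate. It went up in the line made resistant in culture and down in both lines taken from patients at resistance. Its log2 CPM was 5.39, 5.63 and 5.19 in A2780 and 6.30, 6.44 and 6.40 in CP70 (log2FC 0.98, SE 0.11, FDR = 5.66e-07). In PEA1 it was 6.91, 7.04 and 7.07 and in PEA2 5.33, 5.38 and 5.24, a fall of 3.23-fold (log2FC -1.69, SE 0.11, FDR = 1.2e-10). PEO1 had 6.74, 6.73 and 6.95 and PEO4 6.07, 6.20 and 6.01 (log2FC -0.72, SE 0.11, FDR = 3.34e-05). No libraries overlapped within any pair, and the difference between pairs passed for each choice of pairs.

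The subunits therefore did not move together. Within each library, GCLC minus GCLM averaged -0.20 ± 0.26 log2 units (SD, n = 3) in A2780 and -0.72 ± 0.02 in CP70, where the gap was wider. It averaged -2.13 ± 0.25 in PEA1 and -0.29 ± 0.41 in PEA2, and -1.93 ± 0.22 in PEO1 and -0.06 ± 0.28 in PEO4. In both HGSOC pairs the sensitive line held the wide gap and the resistant line a narrow gap, with no overlap of libraries. This difference was looked at after the values were seen and was not tested. Per kilobase of exon, GCLM was above GCLC in the mean of every line, from 12.6 against 7.63 CPM per kilobase in PEO4 to 23.7 against 3.45 in PEA1. The length was that of all annotated exons together, 8618 bases for GCLC and 5426 for GCLM, and the isoforms expressed were not measured. Unscaled, the gaps in A2780, PEA2 and PEO4 were within their SD, so the distance there rests largely on these lengths.

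**Figure D2:**
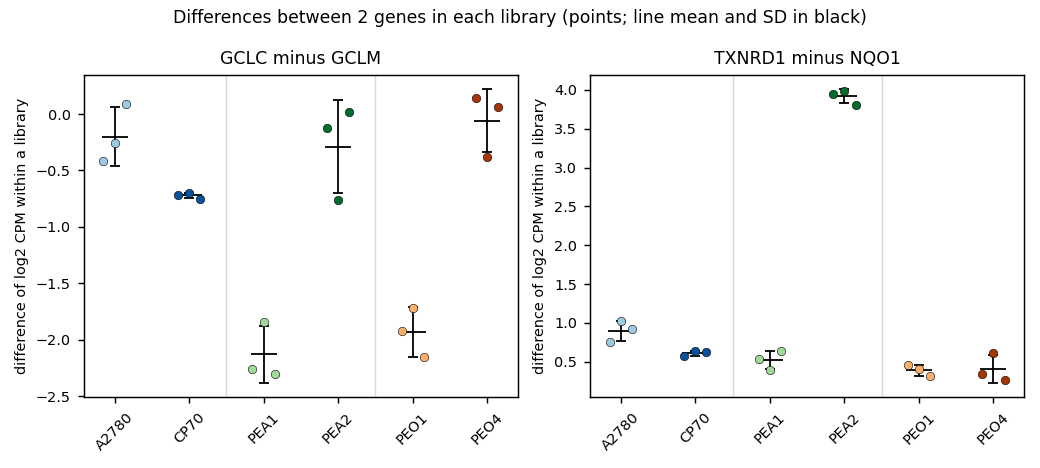
Differences of log2 CPM within each library, GCLC minus GCLM on the left and TXNRD1 minus NQO1 on the right, with points for libraries and the mean and SD of each line in black. GCLC minus GCLM averages -2.13 in PEA1 and -1.93 in PEO1 but -0.29 in PEA2 and -0.06 in PEO4. TXNRD1 minus NQO1 averages 3.92 in PEA2 and between 0.39 and 0.90 in the other lines.

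Glutathione synthetase and reductase. GSS (ENSG00000100983, chromosome 20, 33516235 to 33543830, minus strand), which adds glycine, passed the test in the PEO pair alone. It read 6.04, 5.61 and 5.89 log2 CPM in A2780 and 5.84, 5.83 and 5.88 in CP70, with a log2FC of 0.00 (SE 0.14, FDR = 0.99). The PEA lines also overlapped, at 6.20 to 6.54 in PEA1 and 6.11 to 6.27 in PEA2 (log2FC -0.18, SE 0.14, FDR = 0.262). GSS rose in PEO4, from 4.92, 4.88 and 5.09 to 5.62, 5.14 and 5.43 (log2FC 0.44, SE 0.14, FDR = 0.0138), a call that did not pass without PEO1 replicate 2 (FDR = 0.0521) or PEO4 replicate 1 (FDR = 0.0914). MYH7B lies opposite and overlaps GSS.

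GSR (ENSG00000104687, chromosome 8, 30535583 to 30585363, minus strand) reduces oxidized glutathione with NADPH. It fell in PEA2 by 0.98 on the log2 scale (SE 0.10, FDR = 7.89e-08), from 7.85, 8.09 and 8.04 log2 CPM to 6.88, 7.00 and 7.17. In CP70 it rose slightly, from 7.78, 7.64 and 7.71 to 8.09, 7.97 and 8.03 (log2FC 0.32, SE 0.10, FDR = 0.0168). The PEO lines overlapped, with 7.08 to 7.25 in PEO1 and 6.99 to 7.34 in PEO4 (log2FC 0.06, SE 0.10, FDR = 0.688). GSR had the narrowest span of the 9 genes across lines, 2.02-fold.

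Conjugation. GSTP1 (ENSG00000084207, chromosome 11, 67351213 to 67354127, plus strand), the pi-class transferase that couples glutathione to electrophiles, had its highest levels in the PEO lines. PEO1 read 9.36, 9.50 and 9.39 log2 CPM and PEO4 9.54, 9.34 and 9.63, which overlapped (log2FC 0.09, SE 0.09, FDR = 0.486). It rose in PEA2, from 7.63, 7.64 and 7.52 to 8.14, 8.22 and 8.10 (log2FC 0.55, SE 0.09, FDR = 3.08e-05). A smaller rise was seen in CP70, from 7.96, 7.68 and 7.77 to 8.21, 8.18 and 8.04 (log2FC 0.34, SE 0.09, FDR = 0.00546). The annotation holds a pseudogene named GSTP1P1, and how reads shared with it were counted is not stated.

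Quinone and thioredoxin reductases. NQO1 (ENSG00000181019, chromosome 16, 69740899 to 69760571, minus strand) reduces quinones in a single hydride step and is a common readout of NRF2. PEA1 held the highest level of any line, 8.64, 8.70 and 8.64 log2 CPM, and PEA2 the lowest, 6.83, 6.69 and 6.84. The fall was 3.66-fold (log2FC -1.87, SE 0.09, FDR = 1.98e-12), the largest of the 9 genes in the PEA pair. NQO1 rose in the other pairs, from 7.47, 7.18 and 7.39 in A2780 to 7.88, 7.87 and 7.80 in CP70 (log2FC 0.51, SE 0.09, FDR = 0.000193) and from 7.27, 7.26 and 7.44 in PEO1 to 7.78, 7.57 and 7.88 in PEO4 (log2FC 0.42, SE 0.09, FDR = 0.0012). A snoRNA on its strand and a noncoding gene opposite overlap NQO1.

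TXNRD1 (ENSG00000198431, chromosome 12, 104609557 to 104744085, plus strand) is the cytosolic thioredoxin reductase. Its change was opposite to that of NQO1 in the PEA pair, with 9.18, 9.09 and 9.27 log2 CPM in PEA1 and 10.78, 10.68 and 10.65 in PEA2 (log2FC 1.52, SE 0.07, FDR = 1.14e-12). It rose from 7.73, 7.66 and 7.75 in PEO1 to 8.12, 8.18 and 8.15 in PEO4 (log2FC 0.43, SE 0.07, FDR = 7.62e-05). In CP70 it rose by 0.22 (SE 0.07, FDR = 0.0222), from 8.23, 8.20 and 8.31 to 8.46, 8.51 and 8.42, which did not pass without replicate 1 or 2 of either line (FDR 0.0537 to 0.0886). The lines did not overlap in any pair, and no neighbours in the order of the 6 lines overlapped: PEA2, PEA1, CP70, A2780, PEO4 and PEO1 from high to low. The rise in PEA2 was larger than that in CP70 by 1.30 (SE 0.10, FDR = 2.42e-09) and than that in PEO4 by 1.09 (SE 0.10, FDR = 3.3e-08). TXNRD1 minus NQO1, also looked at after the values were seen, averaged 3.92 ± 0.09 (SD, n = 3) in PEA2 and between 0.39 and 0.90 in the other lines. EID3 and the pseudogene RPL18AP3 overlap TXNRD1 on its strand.

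In the A2780 pair the small changes rested on few libraries. Without CP70 replicate 1, GCLC, GSR and TXNRD1 no longer passed, and 5 of the 9 genes were called in place of 8.

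Haem oxygenase. HMOX1 (ENSG00000100292, chromosome 22, 35776354 to 35790207, plus strand), which breaks haem down to biliverdin, iron and carbon monoxide, moved furthest and in opposite directions. It read 3.39, 3.49 and 3.51 log2 CPM in A2780 and 5.62, 5.69 and 5.76 in CP70, a 4.68-fold rise (log2FC 2.23, SE 0.33, FDR = 1.48e-05). PEO1 had 3.06, 3.45 and 3.37 and PEO4 1.17, 0.22 and 0.51 (log2FC -2.66, SE 0.33, FDR = 1.99e-06). The PEO values rest on 25, 30 and 68 reads in PEO1 and 6, 3 and 3 reads in PEO4. Scaled for depth, PEO1 held 6.85 times the reads of PEO4 (95% exact interval 3.78 to 13.6, which covers counting error only). PEA1, at 3.82, 3.47 and 2.29, spread more than any other line and overlapped PEA2, at 2.85, 3.39 and 3.36 (log2FC 0.01, SE 0.33, FDR = 0.984). The change in CP70 exceeded that in PEO4 by 4.89 (SE 0.47, FDR = 4.49e-08), and from CP70 to PEO4 the line means spanned 5.06 log2 units, 33.3-fold.

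**Figure D3:**
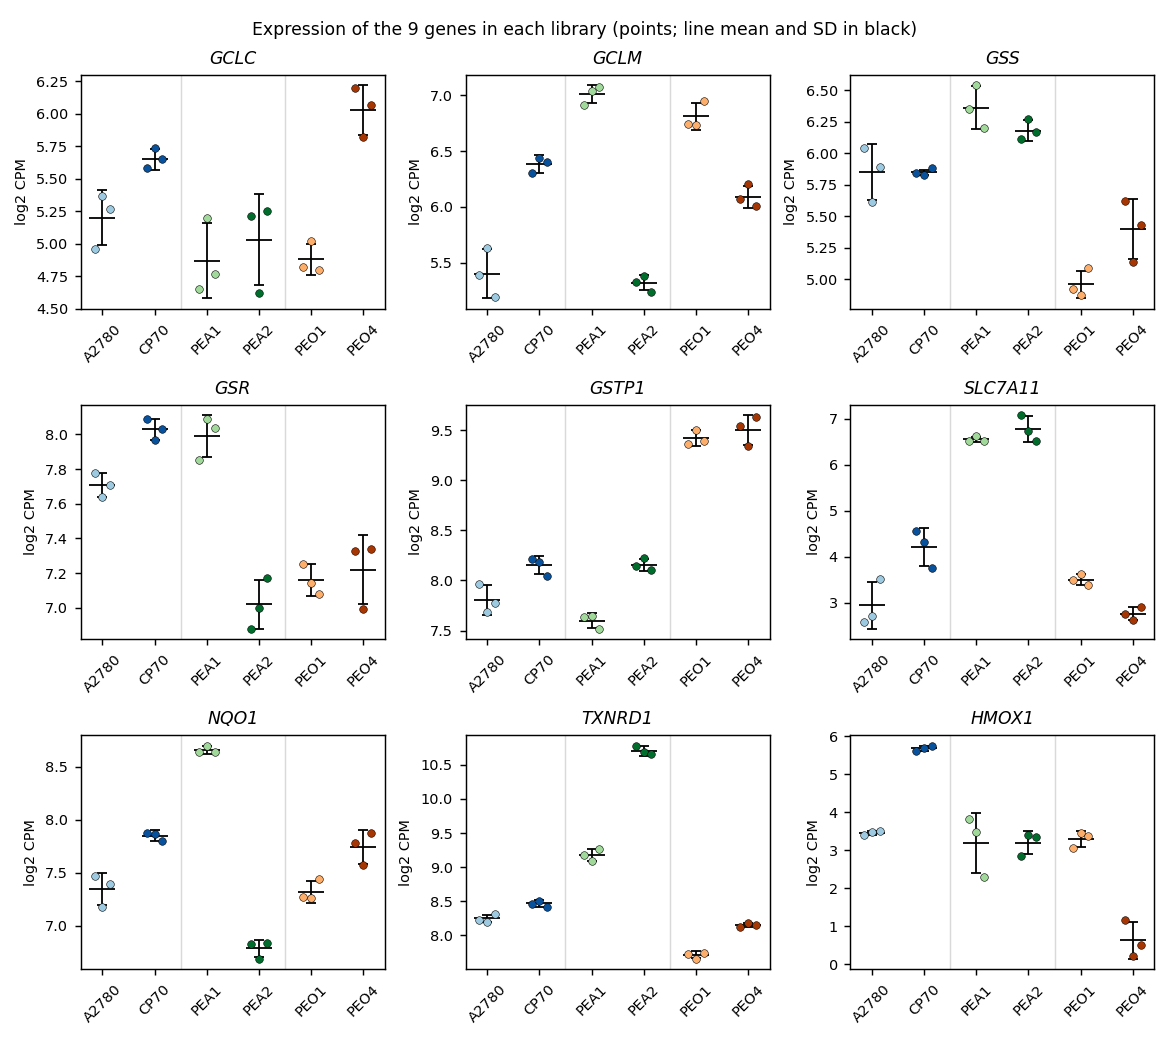
Log2 CPM of the 9 genes in each of the 18 libraries, with points for libraries and the mean and SD of each line in black. Lines are ordered by pair, the sensitive line first, and each panel has its own scale. TXNRD1 and SLC7A11 are highest in the PEA lines, GSTP1 in the PEO lines and HMOX1 in CP70.

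Across the lines the genes had unlike orders. PEA1 led for GCLM, GSS and NQO1, PEA2 for SLC7A11 and TXNRD1, CP70 for GSR and HMOX1, and PEO4 for GCLC and GSTP1. Several leaders did not stand apart from the next line: PEA1 and PEO1 overlapped for GCLM, PEA1 and PEA2 for GSS, CP70 and PEA1 for GSR, PEO4 and PEO1 for GSTP1, and PEA2 and PEA1 for SLC7A11. Per kilobase of exon, GSTP1 was the most abundant of the 9 in A2780, CP70, PEO1 and PEO4, with means of 127 to 413 CPM per kilobase in these lines. Over all lines, TXNRD1 (31.3 to 249), NQO1 (37.2 to 136) and GSR (36.1 to 72.6) also stood high, NQO1 leading in PEA1 and TXNRD1 in PEA2. On this scale, which depends on the length of all annotated exons together, the genes of synthesis were lower. GCLM was at 7.35 to 23.7, GSS at 5.07 to 13.4, GCLC at 3.42 to 7.63 and SLC7A11 at 0.706 to 11.5 CPM per kilobase. HMOX1 ranged from 0.699 to 22.4.

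For the 3 genes with the widest span, the genes of the table most like them over the 6 line means were noted, among 9942 genes with a mean log2 value above 3. HMOX1 ran most closely with DEF8 (Pearson r = 0.969) and PRPS2 (0.954). SLC7A11 ran with the pseudogenes HSPA8P5 (0.999) and CHCHD3P3 (0.996), and TXNRD1 with LMBRD2 (0.990) and TRIM24 (0.987). With 6 points that share libraries and scaling, these values are descriptions, and 5, 44 and 31 genes reached r above 0.95 with HMOX1, SLC7A11 and TXNRD1.

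The regulators of NRF2 were compared next. NFE2L2 mRNA rose in both HGSOC pairs, and its rise in CP70 was at the threshold. It went from 5.90, 6.0 and 5.99 log2 CPM in PEO1 to 7.21, 7.27 and 7.38 in PEO4 (log2FC 1.32, SE 0.09, FDR = 9.06e-10) and from 7.24, 7.26 and 7.22 in PEA1 to 7.67, 7.98 and 7.66 in PEA2 (log2FC 0.53, SE 0.09, FDR = 4.85e-05). In CP70 it was higher by 0.24 (SE 0.09, FDR = 0.0464), a call at the threshold: it did not pass with voom weights (FDR = 0.065), without the variance trend (FDR = 0.0709), with 2 reads added (FDR = 0.0573) or in 12 of 18 fits that left out a library. The log2FC of NFE2L2 was lowest in the A2780 pair, and its contrasts between pairs are not reported here. A link between NFE2L2 mRNA and the changes of the 9 genes was not tested. The protein and its place in the cell were not measured.

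BACH1, the repressor, rose in both HGSOC pairs. It went from 5.70, 5.38 and 5.30 in PEA1 to 7.51, 7.84 and 7.96 in PEA2 (log2FC 2.31, SE 0.12, FDR = 3.99e-12) and from 5.16, 4.92 and 5.10 in PEO1 to 6.27, 6.17 and 6.26 in PEO4 (log2FC 1.17, SE 0.12, FDR = 1.95e-07). In the A2780 pair BACH1 did not pass (log2FC -0.18, SE 0.12, FDR = 0.263). KEAP1 rose in PEA2 (log2FC 0.52, SE 0.14, FDR = 0.00303) and did not pass in the A2780 pair (-0.08, SE 0.14, FDR = 0.697) or the PEO pair (-0.29, SE 0.14, FDR = 0.106), where it passed with the pair fitted alone (FDR = 0.0362) and with voom weights (FDR = 0.0336). Of the small MAF genes, partners of both NRF2 and BACH1, MAFF and MAFK were far higher in PEA2, whereas MAFG was lower. MAFG, named after its values were seen, fell in PEA2 (log2FC -0.45, SE 0.18, FDR = 0.0411) and rose in PEO4 (1.03, SE 0.18, FDR = 0.000139). MAFF rose by 3.24 (SE 0.27, FDR = 2.71e-09), and MAFK reads were 1, 3 and 7 in PEA1 against 35, 63 and 40 in PEA2, a depth-scaled ratio of 7.52 (95% exact interval 4.08 to 15.4). In all, of the 13 genes listed for NRF2 control, 4 were higher and 1 lower in CP70, 8 and 2 in PEA2, and 5 and 1 in PEO4. Over all genes the shares were 22.2% and 17.7%, 32.5% and 29.4%, and 19.6% and 21.9% in the same order.

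**Figure D4:**
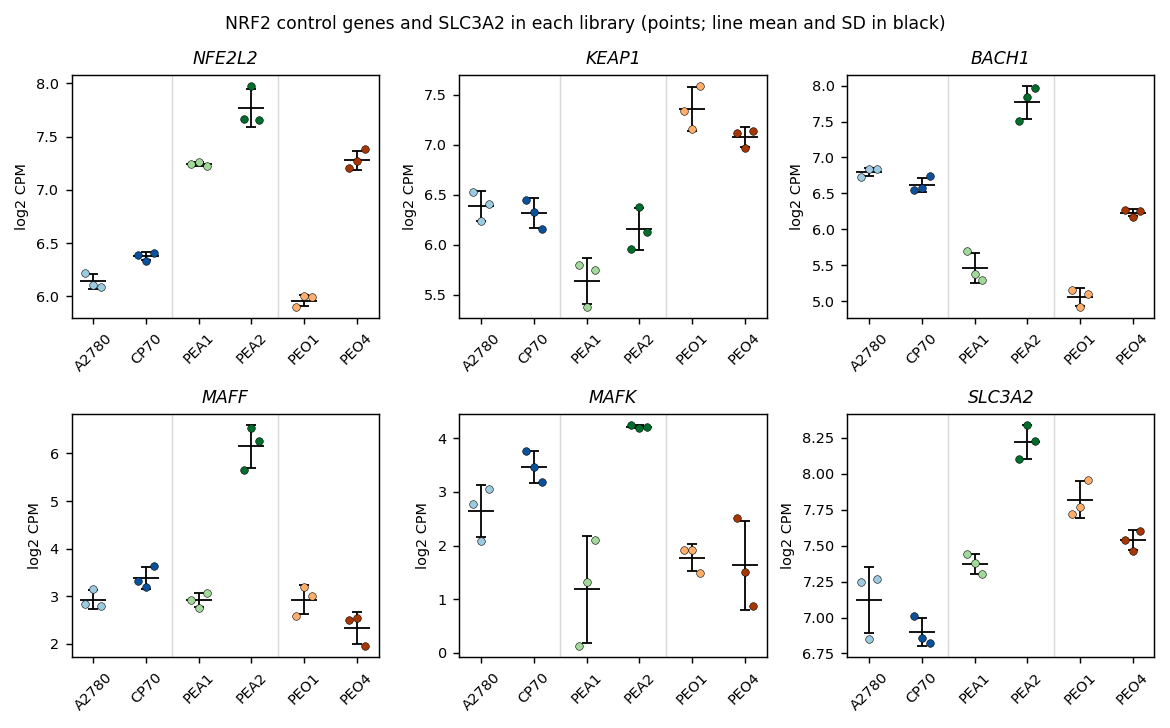
Log2 CPM of NFE2L2, KEAP1, BACH1, MAFF, MAFK and SLC3A2 in each library, with points for libraries and the mean and SD of each line in black. NFE2L2 averages 7.28 in PEO4 against 5.96 in PEO1, and BACH1 7.77 in PEA2 against 5.46 in PEA1.

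Other genes of the same pathways were counted on 8 lists. Of 132 listed genes, 118 were in the table. They were higher and lower in equal number in CP70 (27 and 27, 22.9% each), more often higher in PEA2 (50 higher, 42.4%, and 33 lower, 28%), and near even in PEO4 (24 higher, 20.3%, and 28 lower, 23.7%). Set beside the shares over all genes, 22.2% and 17.7%, 32.5% and 29.4%, and 19.6% and 21.9% in the same order, the lists lay nearest to all genes in PEO4 and furthest above them for higher genes in PEA2. The medians of log2FC over the 118 genes were -0.02, 0.16 and -0.08. The same shares over all genes stand beside the counts of each list below. Several of those counts lie near the shares, and no list was tested as a set.

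Among 21 enzymes regulated by NRF2, 8 were higher and 2 lower in CP70, 6 and 6 in PEA2, and 8 and 2 in PEO4. CBR1, a carbonyl reductase, had 0 reads in every A2780 library and 31 to 66 in CP70, at least 9.9-fold higher against 3 reads per library. OSGIN1, an oxidative stress response gene, held 54.4 times the reads in CP70 (95% exact interval 18.4 to 266). CBR1 also rose in PEO4 (log2FC 1.23, SE 0.27, FDR = 0.00106), as did OSGIN1 (1.62, SE 0.44, FDR = 0.00599). The OSGIN1 rise rests on 2 to 13 reads per library in PEO1 and 10 to 15 in PEO4. Neither gene passed in the PEA pair (FDR = 0.957 for CBR1 and 0.321 for OSGIN1). In PEA2 the ferritin heavy chain FTH1 rose (log2FC 2.15, SE 0.15, FDR = 3.3e-10), although it fell in PEO4 (-0.48, SE 0.15, FDR = 0.0173), whereas AKR1C3, an aldo-keto reductase, had 13.3 times fewer reads than in PEA1 (8.85 to 20.9). AKR1B10, of the same family, had 14, 6 and 10 reads in PEO4 and 0, 2 and 0 in PEO1, a ratio of 22.4 (5.69 to 194).

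Of the other 15 glutathione S-transferases, 2 were higher and 6 lower in CP70, where GSTP1 rose. The microsomal enzyme MGST1 had 112 to 236 reads per library in A2780 and 0 in every CP70 library, at least 85.5-fold lower, and MGST2 was at least 7.45-fold lower. MGST1 rose in PEA2 (log2FC 1.23, SE 0.17, FDR = 3.14e-06). In PEA2 6 were higher and 6 lower, GSTA4 among the latter (0 reads in PEA2, at least 5.05-fold lower), and in PEO4 1 was higher and 2 lower. Of 19 genes of glutathione use and turnover, 3 were higher and 7 lower in CP70, 8 and 5 in PEA2, and 6 and 4 in PEO4. The peroxidase GPX1 had 180, 128 and 80 reads in A2780 and 5, 0 and 0 in CP70, 113 times fewer (48.1 to 350), while GPX4, which reduces lipid peroxides, did not pass there (log2FC 0.07, SE 0.13, FDR = 0.704), rose in PEA2 (0.71, SE 0.13, FDR = 8.92e-05) and fell in PEO4 (-0.48, SE 0.13, FDR = 0.00537). CHAC1, which degrades glutathione, fell in CP70 (-2.73, SE 0.46, FDR = 6.34e-05), rose in PEA2 (1.43, SE 0.46, FDR = 0.0106) and did not pass in PEO4 (-1.12, SE 0.46, FDR = 0.0567). GGT1, which cleaves glutathione outside the cell, fell in PEA2 (-3.06, SE 0.38, FDR = 8.38e-07) and rose in CP70 (1.26, SE 0.38, FDR = 0.0119). It also rose in PEO4 (1.81, SE 0.38, FDR = 0.000669), but on few reads, 1 to 7 per library in PEO1 and 3 to 10 in PEO4. OPLAH, which returns the glutamate of glutathione, was at least 11.5-fold higher in PEA2, rose in PEO4 (0.89, SE 0.23, FDR = 0.00376) and fell in CP70 (-0.65, SE 0.23, FDR = 0.03). GGT7 had 3.99 times more reads in PEO4 (2.28 to 7.29), with 0, 4 and 14 reads in the PEO1 libraries, and fell in CP70 (log2FC -2.15, SE 0.62, FDR = 0.00844). The fitted log2FC of 2.82 in PEO4 was 1.65 without PEO1 replicate 1 and 3.52 without PEO1 replicate 3.

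The supply of cysteine and glutamate and the targets of ATF4, the amino acid stress factor that also drives SLC7A11, were listed as well. Of 11 supply genes, 1 was higher and 4 lower in CP70, 7 and 2 in PEA2, and 0 and 6 in PEO4. Of 8 genes on the ATF4 list, ATF4 included, 0 were higher and 4 lower in CP70, 5 and 1 in PEA2, and 0 and 5 in PEO4. SLC1A4, a carrier of small neutral amino acids, was the supply gene that rose in CP70 (log2FC 2.35, SE 0.23, FDR = 6.26e-08), and it fell in PEO4 (-1.23, SE 0.23, FDR = 0.000249). TRIB3, an ATF4 target, rose in PEA2 (2.38, SE 0.21, FDR = 7.05e-09) and fell in PEO4 (-2.68, SE 0.21, FDR = 4.24e-09). SLC7A11 itself rose in CP70, where 0 of these 8 genes were higher, and a link between ATF4 and SLC7A11 was not tested here.

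In the thioredoxin and peroxiredoxin system, 6 of 21 genes were higher and 3 lower in CP70, 6 and 7 in PEA2, and 4 and 3 in PEO4. TXN, the substrate of TXNRD1, rose in CP70 (log2FC 0.63, SE 0.16, FDR = 0.0039) and did not pass in PEA2 (0.08, SE 0.16, FDR = 0.702), where TXNRD1 rose most, or in PEO4 (0.16, SE 0.16, FDR = 0.477). TXNIP, which binds and inhibits thioredoxin, rose in CP70 (1.49, SE 0.15, FDR = 5.01e-08), PEA2 (3.51, SE 0.15, FDR = 1.34e-13) and PEO4 (2.31, SE 0.15, FDR = 2.25e-10). SESN3, a sestrin, had 16.6 times more reads in CP70 (6.29 to 62.3), and MSRB3, a methionine sulfoxide reductase, 51.6 times fewer in PEA2 (30.4 to 95.1). Of 10 genes of haem breakdown and iron handling, 3 were higher and 0 lower in CP70, 4 and 4 in PEA2, and 0 and 5 in PEO4, where HMOX1 also fell.

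**Figure D5:**
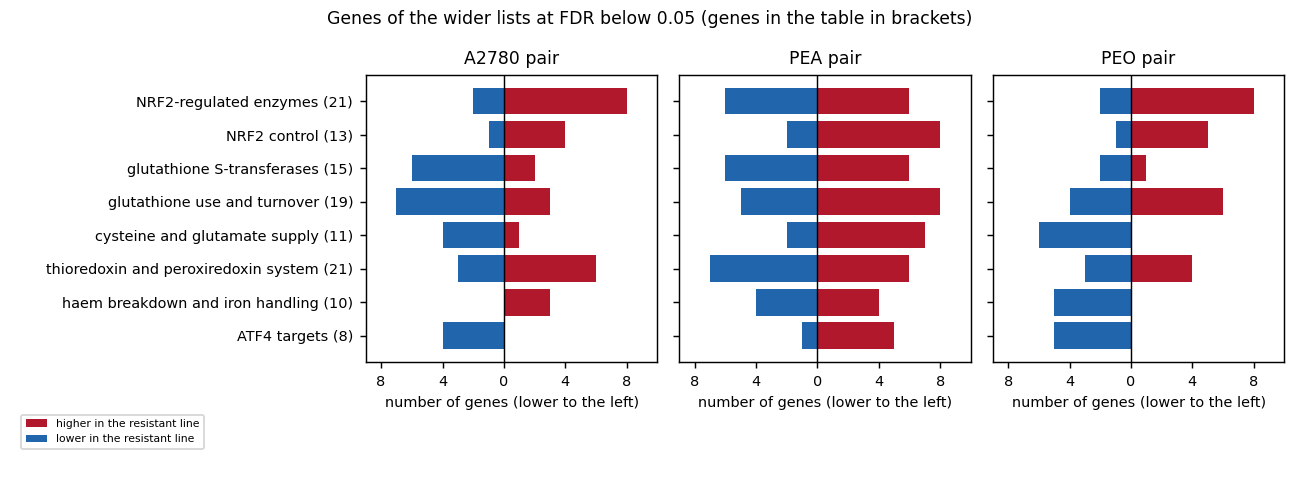
Number of genes of each wider list with an FDR below 0.05 in each pair, higher in the resistant line to the right (red) and lower to the left (blue), with the number of genes in the table in brackets. Cysteine and glutamate supply and ATF4 targets lie to the right in the PEA pair (7 and 5 higher) and to the left in the PEO pair (6 and 5 lower).

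Markers of cell type moved strongly in the PEA pair beside the changes of TXNRD1, NQO1, GCLM and GSR. There, 8 of 10 markers of serous epithelium were higher in PEA2 and 0 were lower, against 3 and 0 in CP70 and 2 and 1 in PEO4. Over all genes, 32.5% were higher and 29.4% lower in PEA2, 22.2% and 17.7% in CP70, and 19.6% and 21.9% in PEO4. PTPRC, the sole leukocyte marker of 6 in the table, reached 20.3 to 25.3 CPM in PEA2 and had at most 3 reads in every library of the other lines. CDH5, the sole endothelial marker of 4 in the table, likewise reached 25.5 to 36.4 CPM in PEA2 and at most 3 reads per library elsewhere. The 5 stromal markers in the table summed to 367 to 449 CPM in PEA1 and 4.17 to 7.73 in PEA2, with 1 higher and 1 lower, to 510 to 721 in A2780 and 870 to 1010 in CP70, with 3 higher, and to 4.08 to 7.76 in PEO1 and 78.5 to 84.9 in PEO4, with 2 higher. Of 3 mesothelial markers, 1 was higher and 1 lower in each pair, and they summed to 147 to 178 CPM in PEA1 and 241 to 299 in PEA2. Their part in the changes of the 9 genes was not tested.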

How the data were processed

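RNA-seq was analysed for 18 libraries, 3 of each of the 6 lines A2780, CP70, PEA1, PEA2, PEO1 and PEO4. Per the labels and the paper's methods, strand-specific libraries of rRNA-depleted RNA were aligned (Bowtie2 is named in the submitters' processing notes), featureCounts assigned the reads to hg19 genes, and limma was used to normalize them. Versions are not given in the sources used here. The authors deposited log2 CPM values with 0.5 reads added, in a table of 12853 genes. Whole reads were recovered within 0.01 of a read from 100% of the values and served for depth, intervals and alternatives.

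The deposited log2 values were fitted with limma 3.58.1 in R 4.3.3, with 1 mean per line, a variance trend and no filter, and P values were adjusted by Benjamini-Hochberg over 12853 genes. The contrasts were resistant minus sensitive in each pair, differences of these between pairs, and a linear model of pair and sensitivity. All tests were two-sided. The fitting code was run on simulated reads with changes in CP70 alone and a single setting of spread for all genes. That setting is simpler than these data, so the run checks the code and not the calls. Intervals and the limit of 3 reads cover counting error only.

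The genes and lists were chosen with earlier results of these data known. Named besides the members were NFE2L2, KEAP1, BACH1, SLC3A2, TXN and GPX4, up to 2 differentially expressed genes per wider list and pair with lines that did not overlap, by size of log2FC, and the 2 genes most like each of the 3 members of widest span. Other genes were named after their values were seen, where the text says so. A few listed genes are not reported here by name but are part of the list counts. Gene positions came from a GENCODE annotation of GRCh37, which matched 12642 identifiers and did not match 211. The alternatives were fits of single pairs, a mean log2 value above 0, quantile normalization, the replicate block, no variance trend, the bound on log2FC, 2 reads added, voom weights, pair differences as replicates and leaving out each library.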

Additional observations from a re-analysis of the deposited data

Results flagged for a closer look

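For 19 of 27 tests the change of a gene differed between 2 pairs at an FDR below 0.05 in limma, and each of the 9 genes had at least 1 such difference. By choice of pairs these were 6 of 9 genes for A2780 and PEA, 4 for A2780 and PEO and 9 for PEA and PEO, where 57.5%, 47.5% and 58.7% of all genes differed. Values are the log2FC (resistant minus sensitive) of the pair named first minus that of the pair named second.

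HMOX1 and GCLM differed in every choice of pairs. HMOX1 gave 4.89 for A2780 minus PEO (SE 0.47, FDR = 4.49e-08), 2.22 for A2780 minus PEA (FDR = 0.000437) and 2.67 for PEA minus PEO (FDR = 6.56e-05). GCLM gave 2.67 for A2780 minus PEA (SE 0.16, FDR = 3.56e-11), 1.69 for A2780 minus PEO (FDR = 3.61e-08) and -0.97 for PEA minus PEO (FDR = 3.09e-05). SLC7A11 did so as well, with 2.01 for A2780 minus PEO (SE 0.33, FDR = 4.57e-05), 1.05 for A2780 minus PEA (FDR = 0.0107) and 0.96 for PEA minus PEO (FDR = 0.0173), of which the last did not pass without PEA2 replicate 1 (0.82, FDR = 0.0526).

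The PEA pair stood apart from both others for NQO1, GSR and TXNRD1. NQO1 gave 2.38 for A2780 minus PEA (SE 0.13, FDR = 1.29e-11) and -2.29 for PEA minus PEO (FDR = 3.13e-11), GSR 1.30 (SE 0.14, FDR = 2.51e-07) and -1.04 (FDR = 4.64e-06), and TXNRD1 -1.30 (SE 0.10, FDR = 2.42e-09) and 1.09 (FDR = 3.3e-08). The A2780 and PEO pairs were not shown to differ for these 3 genes (FDR 0.621, 0.148 and 0.0968).

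GCLC gave -0.70 for A2780 minus PEO (SE 0.25, FDR = 0.0273) and -1.0 for PEA minus PEO (FDR = 0.00216). GSS gave -0.61 for PEA minus PEO (SE 0.19, FDR = 0.0098), and GSTP1 gave 0.47 for the same choice (SE 0.13, FDR = 0.00453).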

How the results depend on the processing

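Under the bound on log2FC above 2, the genes called numbered 1, 0 and 1 (A2780, PEA and PEO pairs) in place of 8, 5 and 7, and the linear model called 0 in place of 3 with the pair differences as replicates (FDR 0.975 for GCLC, GSTP1 and TXNRD1), since it then rests on 3 values. Leaving out each library gave 5 to 8, 5 to 5 and 5 to 7 genes, 3 to 3 in the linear model, 18 to 20 differences between pairs, and 47 to 56, 79 to 84 and 41 to 55 genes of the wider lists. The low of 5 in the A2780 pair came without CP70 replicate 1. Same-numbered replicates did not deviate together (correlations -0.04 to 0.08), and a replicate block left 7, 5 and 7 genes called, GCLC (FDR = 0.0638) and, among other genes, NFE2L2 (FDR = 0.0573) in the A2780 pair not passing, with 3 in the linear model, 19 differences between pairs and 52, 83 and 55 genes of the wider lists.

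Signs turned for some values that did not pass. With 2 reads added, GSS in the A2780 pair was -0.00 and HMOX1 in the PEA pair -0.05. With quantile normalization, GSTP1 for A2780 minus PEA was 0.07 and TXN in the PEA pair -0.07, the median of all genes in the PEA pair moved by 0.11 and no member changed sign within a pair. With voom weights HMOX1 in the linear model was 0.97 (FDR = 0.137). Without a library, GSS in the A2780 pair ranged from -0.12 to 0.10, GSR in the PEO pair from -0.00 to 0.17, NQO1 for A2780 minus PEO from -0.00 to 0.16, HMOX1 from -0.44 to 0.32 in the PEA pair and from -0.32 to 0.10 in the linear model, GPX4 from -0.03 to 0.13 and KEAP1 from -0.15 to 0.00 in the A2780 pair, and TXN from -0.10 to 0.35 in the PEA pair. Of these, TXN without PEA1 replicate 2 passed the threshold (FDR = 0.0148). Quantile normalization also left GSTP1 for PEA minus PEO at 0.29 (FDR = 0.057). GCLC for A2780 minus PEO did not pass in 7 of 18 fits without a library (FDR up to 0.0732). The filter removed 355 genes and changed no call among the 9 genes. Depth limits HMOX1 in PEO4, with 3 to 6 reads per library. The cause of these changes was not tested.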

Other observations

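Of the 118 genes of the wider lists, 2 were higher in all 3 resistant lines (NFE2L2 and TXNIP), 1.69%, beside 1.59% of all genes. NFE2L2 counts there through a call in the A2780 pair that was at the threshold (FDR = 0.0464) and did not pass in 12 of 18 fits that left out a library. GSTCD, SOD2 and TFRC were singled out after their values were seen. GSTCD, a glutathione S-transferase domain gene, fell in each pair, with log2FC values of -0.68 in CP70, -0.37 in PEA2 and -0.44 in PEO4 (FDR = 0.000642, 0.0286 and 0.0167 in limma). SOD2, the mitochondrial superoxide dismutase, had log2FC values of 0.99 in CP70, 2.97 in PEA2 and -1.89 in PEO4 (FDR = 2.75e-06, 2.29e-13 and 6.41e-10), and TFRC, the transferrin receptor, 1.39 in PEA2 and -1.94 in PEO4 (FDR = 1.02e-10 and 4.13e-12).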
